A study of Homo sapiens with 5 samples.

Results

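Chromosomes 10 and 12 were described in Hi-C contact maps of HL60 cells, taking every 500 kb bin of both chromosomes. They hold 540 bins, 272 on chromosome 10 and 268 on chromosome 12, of 6083 bins on the autosomes and chromosome X, and the other 5543 bins are the rest of the series. HL60 is an established human promyelocytic leukemia cell line. ATRA (all-trans retinoic acid) drives it toward granulocyte-like cells, and the phorbol ester TPA drives it toward macrophage-like cells. The sources used here give neither dose nor duration of treatment. The 5 libraries form 3 groups: cells treated with ATRA (1 library), cells treated with TPA (2 libraries) and untreated cells (2 libraries). All come from the same cell line, were crosslinked with formaldehyde and cut with HindIII, and each group has 1 deposited matrix, which holds raw contact counts. The TPA and untreated matrices merge their libraries, so there is no spread between replicates and no p-value is given. Intervals in brackets are exact 95% intervals, which cover no more than counting error in these libraries. Both treatments are set against the same untreated matrix, so their differences are not independent, and library and treatment cannot be told apart.

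Hi-C joins the ends of DNA fragments that are near each other in the cell nucleus and counts such contacts. Contacts fall with distance along a chromosome, and active regions (compartment A) contact other active regions while inactive regions (compartment B) contact other inactive ones. A bin's contacts with other chromosomes, its coverage, depend on how many copies of the DNA the cells carry and on how well the bin can be cut and mapped. In leukemia lines, pieces of different chromosomes that lie on one derivative chromosome contact each other as neighbours do. Chromosome 10 carries GATA3 and EGR2, and chromosome 12 carries ETV6, CDKN1B, LYZ and VDR, all genes studied in blood cells. Genes were not placed in bins, because the gene table at hand follows a later genome build than the maps, so regions are given by their position on hg19, the build that the submitters' processing notes name.

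Chromosome 10 took part in 791923 contacts in ATRA, 840571 in TPA and 839845 in untreated cells, and chromosome 12 in 801755, 836681 and 852635. Contacts within chromosome 10 made up 19.7% of these in ATRA, 24.4% in TPA and 25.5% in untreated cells. On chromosome 12 the share was 18.97% in ATRA, 22.8% in TPA and 24.8% in untreated cells. Both chromosomes lay above the median chromosome, which had 18.3% in ATRA, 20.8% in TPA and 23.8% in untreated cells. The centromeric gap, the run of bins with almost no contacts, covered 39 to 42 Mb of chromosome 10 and 35.0 to 37.5 Mb of chromosome 12. Of the 540 bins, 263 on chromosome 10 and 262 on chromosome 12 had enough contacts for the bin-level measures, of 5629 in all.

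Coverage rose toward the end of the long arm on both chromosomes and also at the tip of 12p. Chromosome 10 split into 4 segments and chromosome 12 into 3. The lowest segment lay around the centromere of chromosome 10, at 8.5 to 70.5 Mb (116 bins), where the median coverage was 0.864 times that of the median bin in ATRA, 0.868 in TPA and 0.846 in untreated cells. The last segment of 10q, at 122.0 to 135.5 Mb (27 bins), stood highest on the chromosome in all 3 matrices, with 1.42 in ATRA, 1.44 in TPA and 1.51 in untreated cells. Between them, the segment at 70.5 to 122.0 Mb (103 bins) had 1.13 in ATRA, 1.15 in TPA and 1.19 in untreated cells. The tip of 10p, at 0 to 8.5 Mb (17 bins), stayed close to the genome's median in all matrices.

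**Figure D1:**
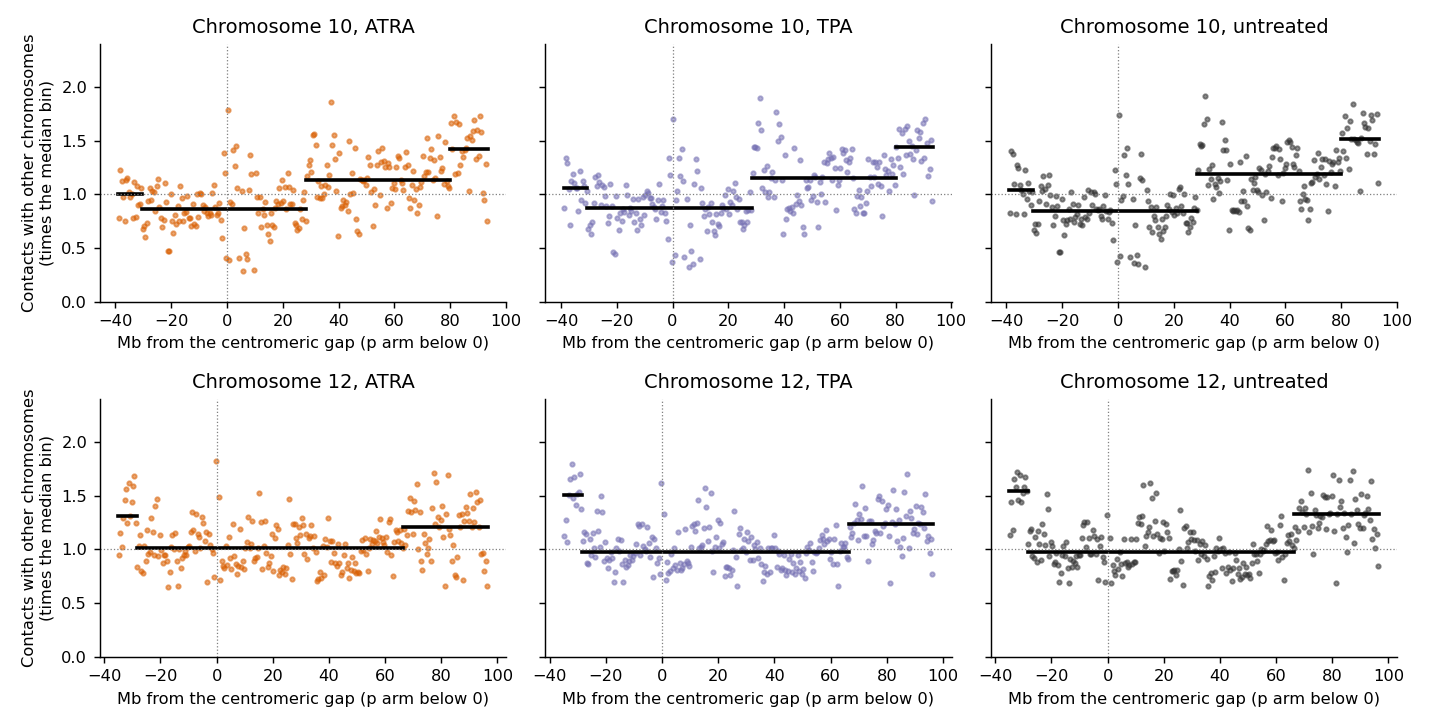
Coverage of each 500 kb bin of chromosome 10 (top) and chromosome 12 (bottom), as contacts with other chromosomes over those of the median bin, in ATRA, TPA and untreated cells, where the horizontal axis is the distance from the centromeric gap in Mb, points are bins, and black lines are segment medians. The last segment of 10q lies at 1.42 in ATRA, 1.44 in TPA and 1.51 in untreated cells.

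On chromosome 12, the tip of the short arm at 0 to 6.5 Mb (13 bins) had the highest median, 1.31 in ATRA, 1.51 in TPA and 1.55 in untreated cells. The segment at 104.0 to 134.0 Mb (60 bins) followed, with 1.21 in ATRA, 1.24 in TPA and 1.33 in untreated cells. The long middle segment, 6.5 to 104.0 Mb (189 bins), sat near the genome's median, with 1.01 in ATRA, 0.980 in TPA and 0.973 in untreated cells. Coverage also followed compartment: the tip of 12p was 84.6% A bins and the middle segment 36.5%. When coverage was first fitted on each bin's share of contacts with A bins, chromosome 12 formed 1 segment. Median residuals on the log2 scale still differed along it. They were 0.53 at the tip of 12p, 0.06 in the middle segment and 0.38 at 104.0 to 134.0 Mb. The last segment of 10q kept a median residual of 0.67 at the same boundary of 122.0 Mb. In that segment 40.7% of bins were A bins. Copy number, HindIII sites and mappability were not measured here, and their part in these levels was not tested.

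A few bins stood far from their neighbours. On chromosome 10, 5 bins exceeded 1.6 times the median in all 3 matrices, and 7 bins with contacts stayed below 0.4 times the median. Of these 7, 5 lay at 46.5 to 52.0 Mb of 10q, close to the centromere. On chromosome 12, 2 bins exceeded 1.6, both at the tip of 12p, and 1 bin beside the gap stayed below 0.4.

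In treated cells coverage moved little, and the distal segments of 10q and 12q were lower in most of their bins. In ATRA this also held for the tips of both short arms. The segment of 12q at 104.0 to 134.0 Mb changed by a median log2 ratio of -0.11 in ATRA and -0.08 in TPA against untreated cells, and it was lower in 42 of its 60 bins in ATRA and 56 of 60 in TPA. The last segment of 10q changed by -0.03 in ATRA and -0.11 in TPA, with 16 of 27 bins lower in ATRA and 26 of 27 in TPA. The tip of 12p changed by -0.11 in ATRA (11 of 13 bins lower) and -0.01 in TPA (9 of 13). The tip of 10p changed by -0.08 in ATRA (14 of 17 bins lower) and 0.02 in TPA (7 of 17). The low segment at 8.5 to 70.5 Mb of chromosome 10 went the other way, with a median of 0.06 in ATRA and 0.03 in TPA, against 0.05 and 0.01 over all bins of the genome. In ATRA, A bins of chromosome 10 had a median of -0.08 and B bins 0.08. A bins of chromosome 12 had -0.11 and B bins 0.10, against -0.05 for A bins and 0.09 for B bins of the genome. Over the whole of chromosome 10, 114 of 263 bins were lower in ATRA and 137 in TPA. Over chromosome 12, 100 of 262 were lower in ATRA and 150 in TPA. The share of all bins of the genome that were lower was not counted.

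Changes of at least 1.2-fold were read against the share of all bins that passed the same limit. In ATRA, 11 bins of chromosome 10 and 29 of chromosome 12 were lower, where 9.26% of all 5629 bins were, and 3 and 2 bins were higher, where 1.95% of all bins were. In TPA, 0 bins of chromosome 10 and 1 of chromosome 12 were lower and 1 and 2 were higher, against 0.178% and 0.195% of all bins. Chromosome 12 thus came to 29 of 262 bins lower in ATRA, a share close to that of the genome. In ATRA the largest rises sat on both sides of the centromere of chromosome 12. The bin at 34.5 to 35.0 Mb had 1.82 times the median in ATRA, 1.62 in TPA and 1.32 in untreated cells, and the bin at 38.0 to 38.5 Mb had 1.49, 1.33 and 1.11. The largest fall in ATRA was at the end of 10q, where the bin at 134.0 to 134.5 Mb had 0.944 in ATRA, 1.24 in TPA and 1.47 in untreated cells.

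A short piece of 10p beside the centromere was joined to 17q. Bin pairs on different chromosomes were called joined when they had at least 20 contacts in the 3 matrices together and at least 10 times the contacts that the coverage of both bins gives. Of 15552524 pairs 730 passed, a share of 0.00469%, and touching pairs formed 205 clusters, of which 6 involved chromosome 10 or 12. The largest of the 6 linked the stretch of 10p at 37.5 to 38.5 Mb with 17q at 27.5 to 29.5 Mb in 6 bin pairs. It held 64 contacts in ATRA, 54 in TPA and 76 in untreated cells, which is 18.9 (14.6 to 24.2), 15.2 (11.4 to 19.9) and 22.6 (17.8 to 28.3) times the expectation. The join was thus present in all 3 matrices. Against untreated cells the ratio for these 6 pairs was 0.838 (0.591 to 1.18) in ATRA and 0.674 (0.467 to 0.968) in TPA. Over the 28 clusters of at least 5 pairs in the genome, the median ratio was 0.782 in ATRA and 0.857 in TPA. The 6 pairs were chosen on these same counts. Over all bin pairs of both stretches, called or not, the ratio was 0.783 (0.570 to 1.07) in ATRA and 0.531 (0.373 to 0.749) in TPA.

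The join had a sharp edge on chromosome 10. With all bins of the chromosome 17 segment, the bin at 37.0 to 37.5 Mb had 2 contacts in ATRA, 0 in TPA and 2 in untreated cells. The next bin, at 37.5 to 38.0 Mb, had 26, 17 and 40, and the bin at 38.0 to 38.5 Mb had 48, 37 and 55. Beyond that edge toward the end of 10p no raised level was seen: 10p outside the joined piece had 0.727 (0.576 to 0.904) times the expected contacts with the chromosome 17 segment in ATRA, 0.967 (0.804 to 1.15) in TPA and 0.8002 (0.652 to 0.972) in untreated cells. On the other side the raised contacts ran across the centromere into 10q. The first 10 Mb of 10q had 2.66 (2.09 to 3.34) times the expectation in ATRA, 2.32 (1.82 to 2.93) in TPA and 2.86 (2.29 to 3.51) in untreated cells. The first bin of 10q was not part of this, with 5 contacts in ATRA, 0 in TPA and 2 in untreated cells.

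Chromosome 17 showed the same one-sided shape. The 2.5 Mb of 17q before the segment had 1.30 (0.625 to 2.397) times the expected contacts with the 10p piece in ATRA, 0.606 (0.197 to 1.41) in TPA and 1.36 (0.651 to 2.50) in untreated cells. Windows of 1 Mb then peaked at 28 to 29 Mb with 18.8 in ATRA, 14.9 in TPA and 22.7 in untreated cells. At 31 to 32 Mb they were at 3.60 in ATRA, 3.14 in TPA and 3.53 in untreated cells. Beyond 39.5 Mb, the rest of 17q still had 2.08 (1.82 to 2.37) times the expectation with the 10p piece in ATRA, 1.59 (1.37 to 1.83) in TPA and 2.09 (1.82 to 2.38) in untreated cells.

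**Figure D2:**
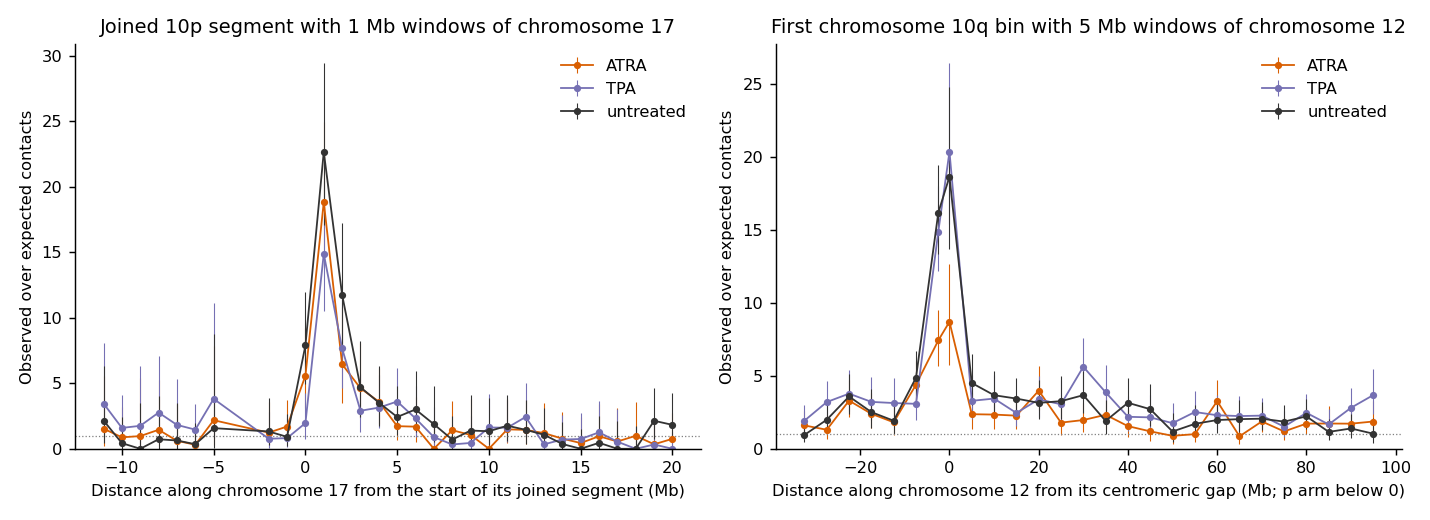
Observed over expected contacts of the joined 10p piece with 1 Mb windows of chromosome 17 (left) and of the first 10q bin with 5 Mb windows of chromosome 12 (right), in ATRA, TPA and untreated cells, where the horizontal axes give the distance in Mb from the start of the joined chromosome 17 segment and from the centromeric gap of chromosome 12, and bars are exact 95% Poisson intervals. On the left the level peaks just inside the segment at 18.8 in ATRA, 14.9 in TPA and 22.7 in untreated cells, and on the right it is highest beside the gap.

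The long arm of chromosome 10 was in raised contact with 17q from the joined segment on, and not with 17p. Its contacts with 17q numbered 14576 in ATRA, 15286 in TPA and 16188 in untreated cells, which is 1.24 (1.22 to 1.26), 1.19 (1.17 to 1.21) and 1.25 (1.23 to 1.27) times the expectation from the coverage of the bins. With 17p the level was 0.918 (0.886 to 0.951) in ATRA, 0.886 (0.855 to 0.918) in TPA and 0.886 (0.855 to 0.917) in untreated cells. The 2.5 Mb of 17q before the segment had only 0.879 (0.806 to 0.957) with 10q in ATRA, 0.805 (0.738 to 0.876) in TPA and 0.803 (0.736 to 0.874) in untreated cells. The raised level reached the far end of 10q: the stretch more than 30 Mb from the gap had 1.21 (1.19 to 1.23) with 17q in ATRA, 1.18 (1.16 to 1.202) in TPA and 1.26 (1.23 to 1.28) in untreated cells.

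A further 3 clusters joined chromosome 10 to chromosome 12, and a single bin of chromosome 10 made all of them. This bin, at 42.0 to 42.5 Mb, is the first of 10q after the gap, and it is named here after its values were seen. It met 33.5 to 35.0 Mb of chromosome 12 in 25 contacts in ATRA, 51 in TPA and 48 in untreated cells, 9.24 (5.98 to 13.6), 21.5 (16.0 to 28.3) and 23.4 (17.2 to 31.0) times the expectation. It met 38 to 40 Mb in 23, 53 and 42 contacts, and 31.0 to 33.0 Mb in 26, 38 and 51. In all 3 clusters the ATRA matrix was the lowest. The ratios to untreated cells in ATRA were 0.395 (0.234 to 0.654), 0.442 (0.254 to 0.753) and 0.462 (0.277 to 0.755), and in TPA they were 0.920 (0.608 to 1.39), 1.16 (0.759 to 1.78) and 0.736 (0.470 to 1.14). The other 2 clusters were single bin pairs of chromosome 12 with other chromosomes.

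The bin at 42.0 to 42.5 Mb differed from its neighbours in where its contacts lay. Of its contacts, 7.13% (6.39 to 7.93) in ATRA, 8.12% (7.32 to 8.98) in TPA and 6.80% (6.06 to 7.61) in untreated cells were with chromosome 10 itself. With chromosome 12 the shares were 11.3% (10.4 to 12.3) in ATRA, 16.4% (15.3 to 17.5) in TPA and 15.1% (14.01 to 16.2) in untreated cells. Its neighbour at 42.5 to 43.0 Mb had 28.1%, 34.8% and 34.6% with chromosome 10 and 4.29%, 3.49% and 3.51% with chromosome 12. Only 8 of 5629 bins in the genome (0.142%) had more contacts with 1 other chromosome than with their own in the summed matrix, and this was the only one on chromosome 10, with 0 on chromosome 12. Its coverage was also high, 1.78 times the median in ATRA, 1.70 in TPA and 1.74 in untreated cells, while only 18, 10 and 16 contacts lay within the bin.

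Contacts of this bin were highest next to the centromere of chromosome 12. They were also raised over wide stretches farther out, though not in every 5 Mb window. Within 5 Mb of the gap on 12p it had 62 contacts in ATRA, 108 in TPA and 113 in untreated cells, 7.42 (5.69 to 9.52), 14.9 (12.2 to 17.96) and 16.2 (13.3 to 19.5) times the expectation. On 12q the first 5 Mb had 5.19 (3.62 to 7.22) in ATRA, 11.3 (8.74 to 14.3) in TPA and 12.0 (9.29 to 15.2) in untreated cells. Even 50 to 100 Mb from the gap the level was 1.66 (1.39 to 1.97) in ATRA, 2.33 (2.00 to 2.69) in TPA and 1.68 (1.41 to 1.99) in untreated cells. Single windows varied. The one at 85 to 90 Mb of chromosome 12 had 0.888 (0.326 to 1.93) in ATRA, 1.76 (0.877 to 3.14) in TPA and 1.18 (0.475 to 2.44) in untreated cells. Over all of chromosome 12 the ratio to untreated cells was 0.754 (0.669 to 0.849) in ATRA and 1.12 (1.004 to 1.25) in TPA. With the next 5 Mb of 10q the bin had 39 contacts in ATRA, 39 in TPA and 32 in untreated cells. Against the same expectation, made for bins on different chromosomes, this is 6.44 (4.58 to 8.81), 6.82 (4.85 to 9.33) and 5.68 (3.89 to 8.02). That expectation takes no account of nearness along a chromosome. These 10q levels therefore show no enrichment and cannot be compared with those on chromosome 12. Bins beside centromeres hold repeats shared between chromosomes, and the part of reads placed on the wrong copy was not tested.

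Apart from that bin, chromosomes 10 and 12 contacted each other about as coverage predicts. Contacts between arms were set against an expectation fitted to the coverage of all 41 arms, over 802 arm pairs on different chromosomes. The pair 10q with 12q had 1.04 (1.02 to 1.05) times the expectation in ATRA, 1.05 (1.04 to 1.07) in TPA and 1.04 (1.03 to 1.06) in untreated cells, and 1.03 in each matrix without the bin. The pair 10q with 12p had 1.02 in all 3 matrices, and 0.997 in ATRA, 0.986 in TPA and 0.995 in untreated cells without the bin. Short arms met a little more: 10p with 12p had 1.05 (1.01 to 1.097) in ATRA, 1.08 (1.04 to 1.12) in TPA and 1.05 (1.01 to 1.099) in untreated cells.

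Each arm had its own preferred partners among 39 arms. The short arms 10p and 12p both met 18p most in untreated cells, and 10q met 17q most. The pair 10p with 18p had 1.21 (1.15 to 1.28) times the expectation in ATRA, 1.24 (1.18 to 1.31) in TPA and 1.31 (1.24 to 1.38) in untreated cells, where 5p and 21q came next. The pair 12p with 18p had 1.18 (1.12 to 1.24) in ATRA, 1.202 (1.14 to 1.27) in TPA and 1.27 (1.21 to 1.34) in untreated cells, where 20q and 20p came next. In ATRA 12p met 22q most, at 1.19. For 10q, the same contacts with 17q, set against the expectation fitted to the arms, reached 1.28 (1.25 to 1.30) in ATRA, 1.22 (1.199 to 1.24) in TPA and 1.28 (1.26 to 1.30) in untreated cells. The next partners of 10q, 13q and Xq, reached only 1.05 each in untreated cells. For 12q, the gene-dense 19p came first in all 3 matrices, with 1.07 (1.03 to 1.104) in ATRA, 1.07 (1.04 to 1.098) in TPA and 1.103 (1.07 to 1.14) in untreated cells, where 19q and 2p came next. With arm lengths as the expectation its ATRA level was 0.871, below 1.

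The long arm of chromosome 16 was among the 3 lowest partners of all 4 arms. In untreated cells it had 0.922 with 10p, 0.882 with 10q, 0.924 with 12p and 0.914 with 12q. The other low partners were 14q and 16p for 10p, 16p and 19p for 10q, 6q and 14q for 12p, and 14q and 21q for 12q. Treatment moved these levels little. In ATRA 0 of the 39 partners of each arm were past 1.1-fold in either direction, where 4.86% of all arm pairs were higher and 3.12% lower. In TPA 1 partner was higher and 0 were lower over the 4 arms, where 7.98% and 3.99% of all arm pairs were. That pair, 10p with 20p, had 1.24 (1.18 to 1.29) in TPA and 1.11 (1.06 to 1.16) in untreated cells, a ratio of 1.11 (1.05 to 1.18).

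**Figure D3:**
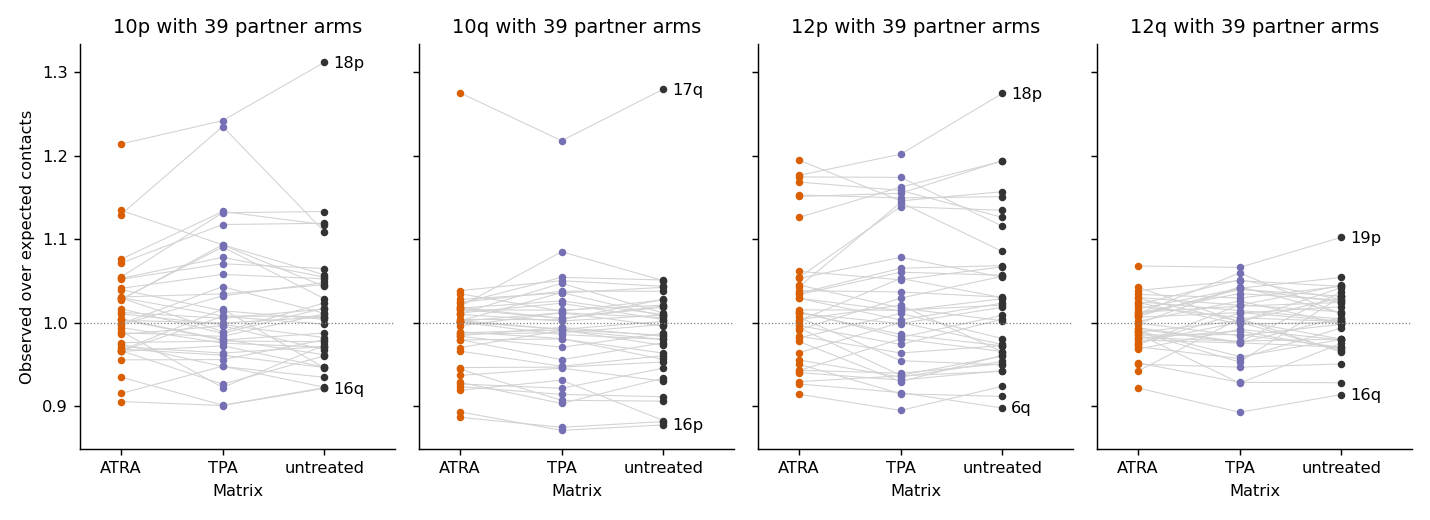
Observed over expected contacts of 10p, 10q, 12p and 12q with each of 39 partner arms on other chromosomes, in ATRA, TPA and untreated cells, where points are arms, grey lines link the same arm across matrices, and the highest and lowest partner in untreated cells are named. Among the partners of 10q, 17q stands apart at 1.28 in ATRA, 1.22 in TPA and 1.28 in untreated cells.

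Contacts between the arms of each chromosome took a larger share of its contacts in treated cells. Contacts between 10p and 10q made up 14.4% (14.2 to 14.6) of contacts between different bins of the arms in ATRA, 14.8% (14.6 to 15.0) in TPA and 13.5% (13.3 to 13.6) in untreated cells. Between 12p and 12q the share was 15.9% (15.7 to 16.2) in ATRA, 15.2% (15.0 to 15.4) in TPA and 14.9% (14.7 to 15.1) in untreated cells. The same direction was seen on 18 of 18 chromosomes with both arms in ATRA and on 17 of 18 in TPA. Per contact of the whole matrix the direction differed: the ratio to untreated cells was 0.886 (0.869 to 0.903) in ATRA and 1.099 (1.08 to 1.12) in TPA for chromosome 10, and 0.873 (0.856 to 0.889) in ATRA and 0.962 (0.945 to 0.979) in TPA for chromosome 12. The larger share therefore came with fewer contacts between the arms in ATRA on both chromosomes and in TPA on chromosome 12.

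Contacts under 2 Mb made up a smaller share of each chromosome in treated cells. On chromosome 10 they were 25.9% (25.6 to 26.1) of contacts between different bins in ATRA, 25.0% (24.7 to 25.2) in TPA and 33.3% (33.0 to 33.5) in untreated cells. On chromosome 12 they were 28.0% (27.7 to 28.2) in ATRA, 26.96% (26.7 to 27.2) in TPA and 35.4% (35.2 to 35.6) in untreated cells. All 23 chromosomes moved the same way in both treatments. The difference on chromosome 10, -7.40 points in ATRA and -8.31 in TPA, and on chromosome 12, -7.41 and -8.43, sat near the median chromosome, -7.41 and -8.38.

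**Figure D4:**
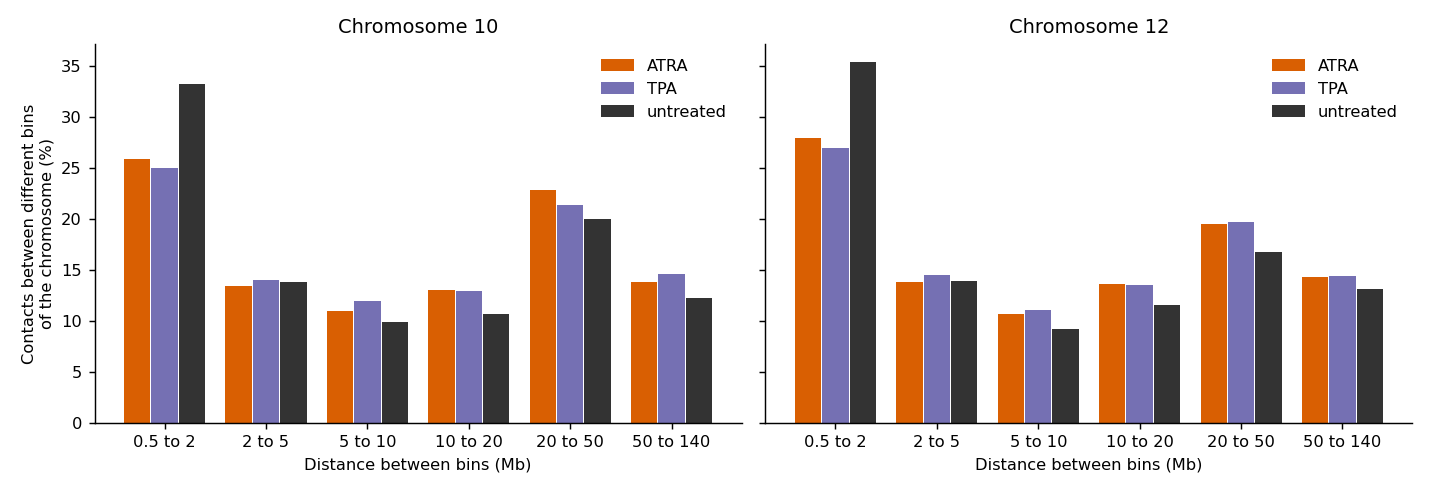
Share of contacts between different bins of chromosome 10 (left) and chromosome 12 (right) by the distance between the bins in Mb, in percent, for ATRA, TPA and untreated cells. The class under 2 Mb is lower in both treated matrices, 25.9% in ATRA and 25.0% in TPA against 33.3% in untreated cells on chromosome 10, and every class from 5 Mb on is higher.

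The shares gained lay mostly from 5 Mb on. At 10 to 20 Mb, chromosome 10 had 13.0% of its contacts in ATRA, 13.0% in TPA and 10.7% in untreated cells. At 2 to 5 Mb the shares were close to each other, with 13.4% in ATRA, 14.03% in TPA and 13.9% in untreated cells. On chromosome 12 the TPA share at this distance was a little higher, with 13.8% in ATRA, 14.5% in TPA and 13.9% in untreated cells. Counted per contact of the whole matrix, chromosome 10 in ATRA had fewer contacts under 2 Mb, with a ratio of 0.644 (0.635 to 0.653) to untreated cells, and close to the same number at 10 to 20 Mb, with 1.01 (0.991 to 1.03). In TPA the ratios on chromosome 10 were 0.751 (0.742 to 0.760) and 1.22 (1.19 to 1.24). Between 1 and 10 Mb the decay was flatter in treated cells. There, the slope of log contacts on log distance on chromosome 10 was -0.86 in ATRA, -0.82 in TPA and -1.05 in untreated cells. On chromosome 12 it was -0.91 in ATRA, -0.89 in TPA and -1.08 in untreated cells. Chromosome 10 had the flattest slope of 23 chromosomes in ATRA and in TPA, where the medians were -0.96 and -0.92. It was already near the flat end in untreated cells, where the median was -1.13 and the flattest slope -1.03. Between 10 and 100 Mb this did not hold in ATRA: the slope on chromosome 10 was -0.75 in ATRA, -0.67 in TPA and -0.73 in untreated cells, and on chromosome 12 it was -0.73 in ATRA, -0.67 in TPA and -0.68 in untreated cells.

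The compartment scores of treated cells followed those of untreated cells along most of both chromosomes. Each bin had a score, positive for A and negative for B, in units of the SD along its chromosome. The scores of treated and untreated cells had a correlation over bins of 0.909 in ATRA and 0.846 in TPA on chromosome 10 (263 bins), and of 0.921 and 0.806 on chromosome 12 (262 bins). By arm, 10p had the lowest correlations, 0.873 in ATRA and 0.785 in TPA over 78 bins. These bins share their libraries, their coverage and their neighbours, so the correlations are descriptions. On chromosome 10, 43.7% of bins were A in ATRA, 42.6% in TPA and 51.7% in untreated cells. On chromosome 12 the shares were 43.1% in ATRA, 42.4% in TPA and 47.7% in untreated cells, against 43.1%, 42.1% and 46.0% over the genome. In the summed matrix, chromosome 10 alternated between 27 A runs and 26 B runs and chromosome 12 between 26 and 25, with the longest A run of 8.0 Mb and the longest B run of 11.5 Mb on each.

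In the balanced matrices, the ends of 10q and 12q had lower compartment scores in both treatments, and the lowest in TPA. For 10q this did not hold without balancing, where the TPA difference turned to 0.38 over the last 15 Mb. The mean score at 120 to 130 Mb of chromosome 10 was 0.363 in ATRA, -0.152 in TPA and 0.582 in untreated cells, and at 130 to 136 Mb it was 0.002 in ATRA, -0.124 in TPA and 0.566 in untreated cells. On chromosome 12, the window at 110 to 120 Mb had 0.632 in ATRA, 0.095 in TPA and 0.855 in untreated cells. The last window, at 130 to 134 Mb, had 0.444 in ATRA, 0.108 in TPA and 1.09 in untreated cells, and all 8 of its bins were lower in each treatment. The first 3 Mb of 10p (6 bins), chosen after their values were seen, also had lower scores, with 0.139 in ATRA, -0.154 in TPA and 0.579 in untreated cells. The first 3 Mb of 12p went the other way, with 1.35 in ATRA, 1.43 in TPA and 1.23 in untreated cells. A regions inside the arms were mixed. The window at 70 to 80 Mb of chromosome 10 had 1.15 in ATRA, 1.14 in TPA and 1.07 in untreated cells, and 50 to 60 Mb of chromosome 12 had 0.907, 1.02 and 0.947. The window at 90 to 100 Mb of chromosome 10 was lower in both treatments, with 0.335 in ATRA, 0.259 in TPA and 0.420 in untreated cells. Scores are centred and scaled within each chromosome and matrix, so a fall in some regions goes with a rise in others.

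**Figure D5:**
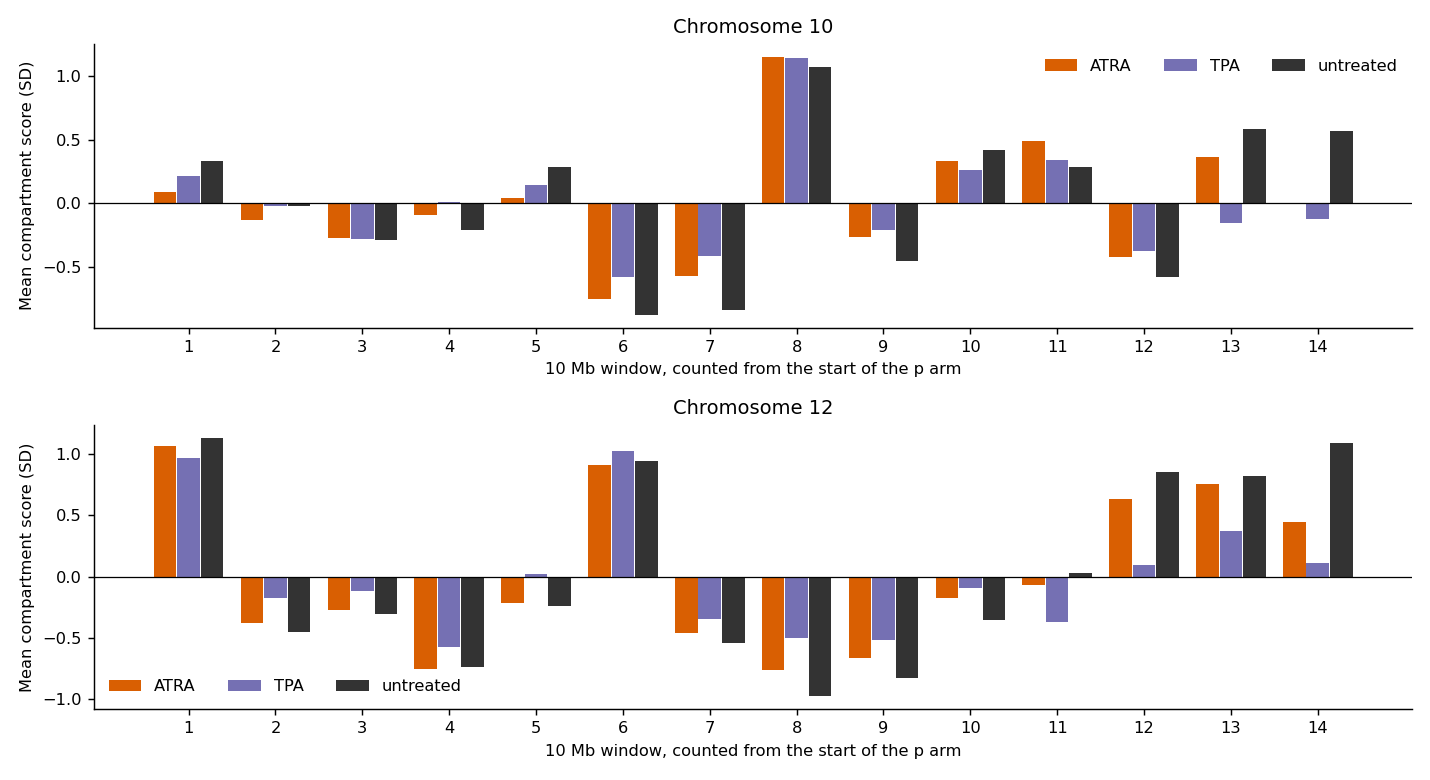
Mean compartment score, in SD along the chromosome, of each 10 Mb window of chromosome 10 (top) and chromosome 12 (bottom), counted from the start of the short arm, in ATRA, TPA and untreated cells. In the last window the score is 0.002 in ATRA, -0.124 in TPA and 0.566 in untreated cells on chromosome 10, and 0.444, 0.108 and 1.09 on chromosome 12.

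Contacts with other chromosomes gave a second reading of the same ends. Over the last 15 Mb of chromosome 10, 44.6% (44.2 to 44.9) of contacts with scored bins of other chromosomes fell on A bins in ATRA, 43.4% (43.1 to 43.8) in TPA and 48.8% (48.5 to 49.2) in untreated cells. Over the last 15 Mb of chromosome 12 the share was 48.4% (48.0 to 48.7) in ATRA, 48.8% (48.4 to 49.1) in TPA and 53.2% (52.8 to 53.5) in untreated cells. The fall in TPA was 5.38 points on chromosome 10, the largest of 23 chromosome ends, and 4.39 points on chromosome 12, the fourth largest, where the median end fell by 1.71. In ATRA the median end fell by 3.86 points, and the falls of 4.26 and 4.80 points on chromosomes 10 and 12 ranked 8 and 3.

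Among the same 23 ends, the mean score of the last 15 Mb fell most on chromosome 10 and next on chromosome 12 in TPA. The differences from untreated cells were -0.71 on chromosome 10 and -0.65 on chromosome 12, against a median of -0.05 over the 23 ends. In ATRA they were -0.33 and -0.23, against a median of -0.03. Of the scored bins in this stretch, 24 of 29 on chromosome 10 and 24 of 30 on chromosome 12 were lower in TPA, and 19 of 29 and 20 of 30 in ATRA. The length of 15 Mb was chosen after the windows had been seen. Without balancing the matrices for coverage, the differences on chromosome 10 were -0.062 in ATRA and 0.38 in TPA, the second of the opposite sign, while those on chromosome 12 were -0.16 and -0.71. Coverage fell in the same stretches in TPA, as given above, and its part in the scores was not tested.

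Few bins changed compartment outright. A bin was counted as switched when its score passed 0.5 SD on one side in untreated cells and on the other in treated cells. In ATRA, 2 bins of chromosome 10 switched A to B and 1 bin of chromosome 12 switched B to A, with 0 in the other direction on each. In TPA, chromosome 10 had 1 of each and chromosome 12 had 4 A to B and 2 B to A. Over all bins, 0.48% switched A to B and 0.107% B to A in ATRA, and 1.56% and 0.338% in TPA. Without chromosomes 14 and 21, whose eigenvectors differed between matrices, these shares were 0.427%, 0.0743%, 1.41% and 0.334%. With 3 of 525 bins in ATRA and 8 of 525 in TPA, the rate on chromosomes 10 and 12 was close to that of the genome. All 5 A to B switches in TPA lay beyond 110 Mb on 10q or 12q.

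The bin of chromosome 12 at 92.5 to 93.0 Mb became A in both treatments. Its score was 0.955 in ATRA, 1.01 in TPA and -0.708 in untreated cells. Its share of contacts with A bins of other chromosomes was 50.1% (48.0 to 52.1) in ATRA, 49.4% (47.3 to 51.5) in TPA and 44.6% (42.5 to 46.8) in untreated cells. The bin of chromosome 10 at 123.0 to 123.5 Mb became B in both, with -0.571 in ATRA, -0.932 in TPA and 0.513 in untreated cells. Its A share was 40.2% (38.7 to 41.8) in ATRA, 39.2% (37.6 to 40.9) in TPA and 45.4% (43.8 to 47.0) in untreated cells. The genome's median A share was itself lower in ATRA, with 43.6% in ATRA, 45.4% in TPA and 45.4% in untreated cells. From that median the bin at 123.0 Mb differed by -3.33 points in ATRA, -6.11 in TPA and 0.01 in untreated cells. The bins at 92.5 and 123.0 Mb were the 2 of 9 switching bins counted in both treatments, which share the untreated matrix. Without balancing the matrices for coverage, neither bin was counted in either treatment.

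The other switches to B in TPA showed the same drop in A share. On chromosome 12, the bin at 117.5 to 118.0 Mb had an A share of 44.8% in ATRA, 41.5% (39.8 to 43.2) in TPA and 48.8% (47.2 to 50.5) in untreated cells. Its coverage was also lower in TPA, 1.42 times the median against 1.70 in untreated cells. The bin at 125.5 to 126.0 Mb had 43.1% in ATRA, 41.6% (39.9 to 43.4) in TPA and 49.5% (47.7 to 51.3) in untreated cells. The bins at 114.0 and 131.5 Mb had 41.5% and 43.8% in TPA, against 48.5% and 49.5% in untreated cells. The bin of chromosome 10 at 132.0 to 132.5 Mb was counted in ATRA only, with a score of -0.501 in ATRA, -0.463 in TPA and 0.631 in untreated cells, so that its TPA score missed the limit by little. The other TPA switches to A were at 11 to 11.5 Mb of chromosome 10, with an A share of 47.8% (45.8 to 49.7) in TPA and 42.9% (40.9 to 45.0) in untreated cells, and at 75.5 to 76.0 Mb of chromosome 12, with 50.6% (48.2 to 53.0) and 47.0% (44.6 to 49.4). The first was not counted per arm, without balancing or with a coverage filter of 0.5 times the median. The second was not counted with that filter, and its untreated A share already lay 1.63 points above the genome's median. No switching bin passed a limit of 0.8 SD on both sides.

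Segregation of A from B was measured as contacts within the 20% most A and the 20% most B bins over contacts between them. On chromosome 10 this saddle strength was 3.23 in ATRA, 2.78 in TPA and 3.28 in untreated cells, and on chromosome 12 it was 4.11, 3.73 and 4.15. The TPA ratios to untreated cells, 0.850 on chromosome 10 and 0.899 on chromosome 12, lay below and at the median of 23 chromosomes, 0.899. The ATRA ratios, 0.986 and 0.992, were also near their median of 0.992. With the most extreme 10% of bins the ratios were 1.33 and 1.21 in ATRA and 1.01 and 1.03 in TPA, all above 1, so no direction is read from them.

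Single bin pairs within the chromosomes changed at rates near the genome's. Pairs at least 1 Mb apart with at least 50 contacts in both matrices together were compared after division by the mean at their distance. In ATRA, 5 of 534 pairs of chromosome 10 and 7 of 547 of chromosome 12 were at least 2-fold higher, where 0.929% of all 9906 pairs were, and 7 and 8 were at least 2-fold lower, where 1.46% were. In TPA, 6 of 618 and 7 of 645 pairs were higher, against 1.07% of 11574 pairs, and 12 and 11 were lower, against 1.88%. The largest rise in ATRA joined the bins at 88.5 and 91.0 Mb of chromosome 12, with 40 contacts in ATRA and 16 in untreated cells, a ratio of 3.63 (1.99 to 6.94) after correction for distance.

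Some of the most changed pairs ended in a switching bin. Compartment scores come from the same contacts within the chromosome, so these pairs are no separate support for the switches. The share of all compared pairs that end in a switching bin was not counted. In ATRA the bin at 123.0 Mb of chromosome 10 met 125.5 Mb in 14 contacts, against 53 in untreated cells, a ratio of 0.366 (0.187 to 0.669). The bin at 132.0 Mb met 134.0 Mb in 19 contacts in ATRA, against 66 in untreated cells, a ratio of 0.445 (0.252 to 0.750). In TPA the bin at 114.0 Mb of chromosome 12 met 116.5 Mb in 17 contacts, against 62 in untreated cells, a ratio of 0.293 (0.160 to 0.507). The largest rise in TPA joined 118.0 and 120.0 Mb of chromosome 10, with 43 contacts in TPA and 15 in untreated cells, a ratio of 3.29 (1.79 to 6.38). Beside the switching bin at 92.5 Mb of chromosome 12, the pair of 91.5 with 93.0 Mb had 38 contacts in ATRA and 26 in untreated cells, a ratio of 2.31 (1.37 to 3.96). The pair of 91.5 with 94.0 Mb had 45 contacts in TPA and 17 in untreated cells, a ratio of 2.83 (1.59 to 5.27).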

How the data were processed

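Contacts were measured by Hi-C with HindIII, per the labels' protocols. Bowtie alignment, HiCUP filtering and HOMER are named for the pipeline, per the series' design text, and the submitters' processing notes list HOMER 4.7 and hg19; no filter settings are known. The authors deposited 3 matrices that hold raw contact counts for pairs of 500 kb bins, whole numbers without normalization per the file headers and values. ATRA is 1 library, and TPA and untreated are merges of 2, per the labels. The matrices held 9632300 contacts in ATRA, 10423501 in TPA and 10628045 in untreated cells.

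Diagonal values, counted from both ends, were divided by 2, and in the untreated matrix 1 cell differed from its mirror. Python 3.11.15 with numpy 2.4.6, scipy 1.17.1 and pandas 2.3.3 was used. Bins whose contacts of all kinds were under 0.2 times the median, in 1 matrix or more, were excluded from bin-level measures. Coverage is the sum of contacts with other chromosomes; segments come from repeated splits with at least 10 bins a side and a step of at least 0.25 on the log2 scale. Compartment scores are eigenvectors of distance-normalised matrices balanced in 60 rounds, signed by contact with chromosome 19; A shares leave out chromosomes 14 and 21. Ratios carry exact conditional binomial intervals, counts exact Poisson and shares exact binomial intervals, all at 95%. Read pairs from PCR are not independent, which the intervals do not cover. The steps were tested on simulated data. Named regions are all coverage segments, joined clusters of at least 5 pairs, the 3 highest and 3 lowest partner arms, all switching bins and the most changed bin pairs. The chromosomes, regions and measures were chosen with earlier results of these data known.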

Additional observations from a re-analysis of the deposited data

How the results depend on the processing

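No paired analysis was possible because the libraries of each condition are merged into 1 matrix, and for the same reason no replicate could be left out. Of 105 alternatives, 43 were labelled the same, 49 moved and 13 turned in direction, and the causes were not tested. The same meant a count within 1.5 times, or a value within the interval of the main result. For coverage change that interval was taken over bins, and elsewhere it was a counting interval. Saddle ratios (12 alternatives) and scores of the last 15 Mb (8) had no interval, so any difference in them was labelled moved or turned. The short-range shares held. Depth limits single bin pairs, which were compared only from 50 contacts in both matrices together. Chromosome 12 had 5 coverage segments with at least 5 bins a side and 1 after the fit on A share, against 3. With all contacts the median log2 coverage change in TPA was 0.037 on chromosome 10 and 0.0015 on chromosome 12, against -0.0026 and -0.011. With at least 40 contacts a pair, 3 joined clusters were left of 6.

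With arm lengths as the expectation, 10q with 17q had 1.61 in ATRA, 1.68 in TPA and 1.82 in untreated cells, 10q with 12p had 1.22, 1.18 and 1.21, and 10q with 12q had 1.2, 1.17 and 1.22. The pair 12q with 19p then had 0.871 in ATRA. Without the first 10q bin, an alternative added after the data were seen, 10q with 12p had 0.997 in ATRA, 0.986 in TPA and 0.995 in untreated cells, and 10q with 12q had 1.03 in TPA.

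Switches from A to B in ATRA, 2 as reported, were 1 per arm, 1 without balancing, 0 with a coverage filter of 0.5, 9 at 0.3 SD and 0 at 0.8 SD. Those from B to A in ATRA, 1 as reported, were 7 without balancing, 4 at 0.3 SD and 0 at 0.8 SD. In TPA, A to B switches, 5 as reported, were 37 without balancing, 25 at 0.3 SD and 0 at 0.8 SD. B to A switches in TPA, 3 as reported, were 30 without balancing, 1 with the filter of 0.5, 6 at 0.3 SD and 0 at 0.8 SD. The bin at 92.5 Mb of chromosome 12 kept its ATRA switch per arm, with the filter of 0.5 and at 0.3 SD, and lost it without balancing and at 0.8 SD.

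The saddle ratio on chromosome 10 was 1.01 per arm, 0.630 without balancing and 1.33 with 10% ends in ATRA, and 0.901, 0.444 and 1.01 in TPA. On chromosome 12 it was 1.03, 0.922 and 1.21 in ATRA and 0.911, 0.836 and 1.03 in TPA. The score difference of the last 15 Mb, alternatives added after the data were seen, was -0.36 per arm and -0.062 without balancing on chromosome 10 in ATRA, and -0.73 and 0.38 in TPA. On chromosome 12 it was -0.23 and -0.16 in ATRA and -0.58 and -0.71 in TPA. Bin pair changes numbered 423 in ATRA and 540 in TPA with at least 20 contacts, and 1 and 3 at 3-fold, against 27 and 36.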
